A study of Mus musculus with 6 samples.

Results

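The genes described here encode the machinery that cuts pre-mRNA and adds the poly(A) tail, together with proteins of the U1 snRNP and regulators that act on the choice of cleavage site. The list named 32 genes, and 31 of them had a probe set annotated to that symbol alone, out of 19938 genes named on the array. Where a gene had several probe sets, the brightest on average was used. Srsf7 was not analysed here. All 31 measured genes lay above the level filter, a mean log2 value of 5.209, and were compared among 14953 genes.

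The cells were fibro/adipogenic progenitors (FAPs), stromal cells that lie between muscle fibres and can turn into fibroblasts or fat cells, from wild-type male C57Bl/6 mice of 8 to 12 weeks. The tibialis anterior muscles of all animals were injured with 30 µL of 50% glycerol, and a vivo-morpholino (VMO), an antisense oligomer that blocks a site on an RNA, was injected 3 days later. Cells were collected 2 days after that injection. The 3 groups received a control VMO, pA-VMO, aimed at polyadenylation sites, or 5'ss-VMO, aimed at a 5' splice site. There were 2 arrays in a group, with RNA from cells of 4 pooled mice on each, so differences between single animals cannot be seen. The study concerns a transcript of Pdgfra, the receptor for platelet-derived growth factor, that ends inside an intron, and it asks what happens in FAPs when the balance between that and the full transcript is moved. The labels name hindlimb muscle as the source and tibialis anterior as the injected muscle. The sorting gate and the sequences of the oligomers are not used here.

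A transcript ends within an intron when cleavage at a poly(A) signal wins over splicing of that intron. CPSF reads the AAUAAA signal and cuts the RNA, CstF binds the GU-rich stretch after the cut, CFIm binds UGUA upstream and favours certain sites, and CFIIm joins cleavage to termination. The U1 snRNP pairs with 5' splice sites and also holds back cleavage at signals inside introns, while CDK12 and the SCAF proteins likewise favour full-length transcripts. The comparisons below therefore ask whether this machinery differed in level when an oligomer was directed at a splice site or at poly(A) sites of a single transcript.

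None of the measured genes passed the test in any comparison. With pA-VMO against control VMO, 0 of 31 genes were called at an adjusted p under 0.05, where 0.00669% of all genes were. For 5'ss-VMO against control VMO the count was 0 of 31 (0.582% of all genes, of which 0.502% were higher and 0.0803% lower). Between the reagents it was 0 of 31 (0.0602%). The test for any difference among the 3 groups also called 0 of 31 (0.361%). At an unadjusted p under 0.05 there were 2, 2 and 3 of the 31 in the pairwise comparisons in that order, where 11.4%, 13.9% and 15.9% of all genes had one, and 2 of 31 in the test over 3 groups (16.5%). As shares of the 31 genes these pairwise counts are 6.45%, 6.45% and 9.68%, and with so few genes no order against the background is read from them.

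The differences were small on the probe sets used, and the intervals given here hold for those probe sets only. On the probe sets used, all 31 genes differed by less than 0.25 on the log2 scale in every comparison. The 95% intervals of the differences, not adjusted for the number of genes, reached down to -0.39 (Pcf11, pA-VMO against 5'ss-VMO) and up to 0.38 (Snrnp70, 5'ss-VMO against control VMO). These bounds correspond to a 1.31-fold lower and a 1.30-fold higher level. Probe sets that the selection rule left out for Srsf3 and Rbbp6 went past 0.25 and are described with the probe sets below. For Srsf3 the intervals there also went past these bounds. They ran from 0.22 to 0.85 with 5'ss-VMO against control and from -0.74 to -0.11 between the reagents. The standard error of a difference was between 0.063 and 0.091, and the gap between the 2 arrays of a group had a median of 0.068 and was at most 0.27 (Cpsf4, control arrays). In bulk RNA, fewer cells of a type and less RNA per cell cannot be told apart.

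**Figure D1:**
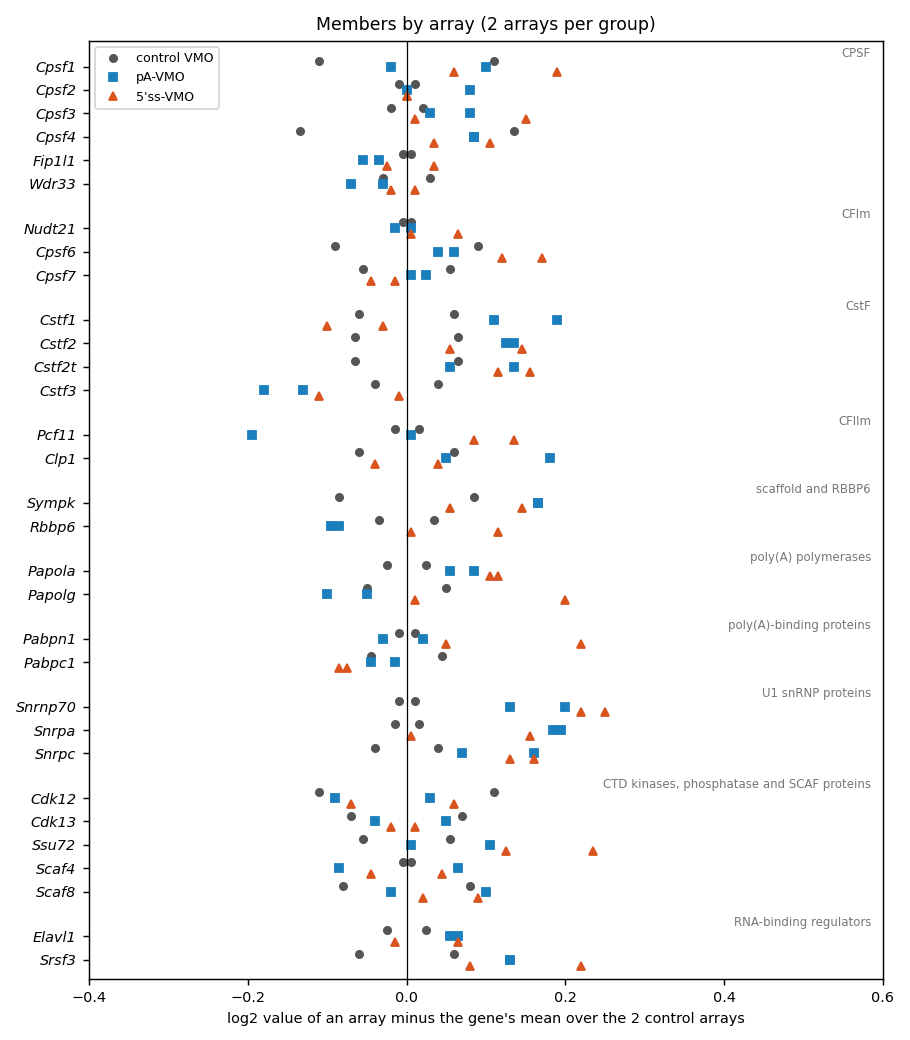
Log2 value of each array minus the gene's mean over the 2 control arrays (x axis) for the 31 measured genes (rows, grouped by role); circles are control VMO, squares pA-VMO and triangles 5'ss-VMO, 2 arrays each. Both pA-VMO arrays lay above both control arrays for 10 of 31 genes (24.1% of all genes) and below them for 5 (18.8%). For 5'ss-VMO the counts were 10 above (23.2%) and 1 below (21.5%). The arrays of the remaining genes overlap those of control. On the probe sets used, Snrnp70, Snrpc, Papola and Srsf3 have all 4 arrays of both reagents above both control arrays. For Snrpc and Srsf3 this does not hold on another probe set, described below.

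**Figure D2:**
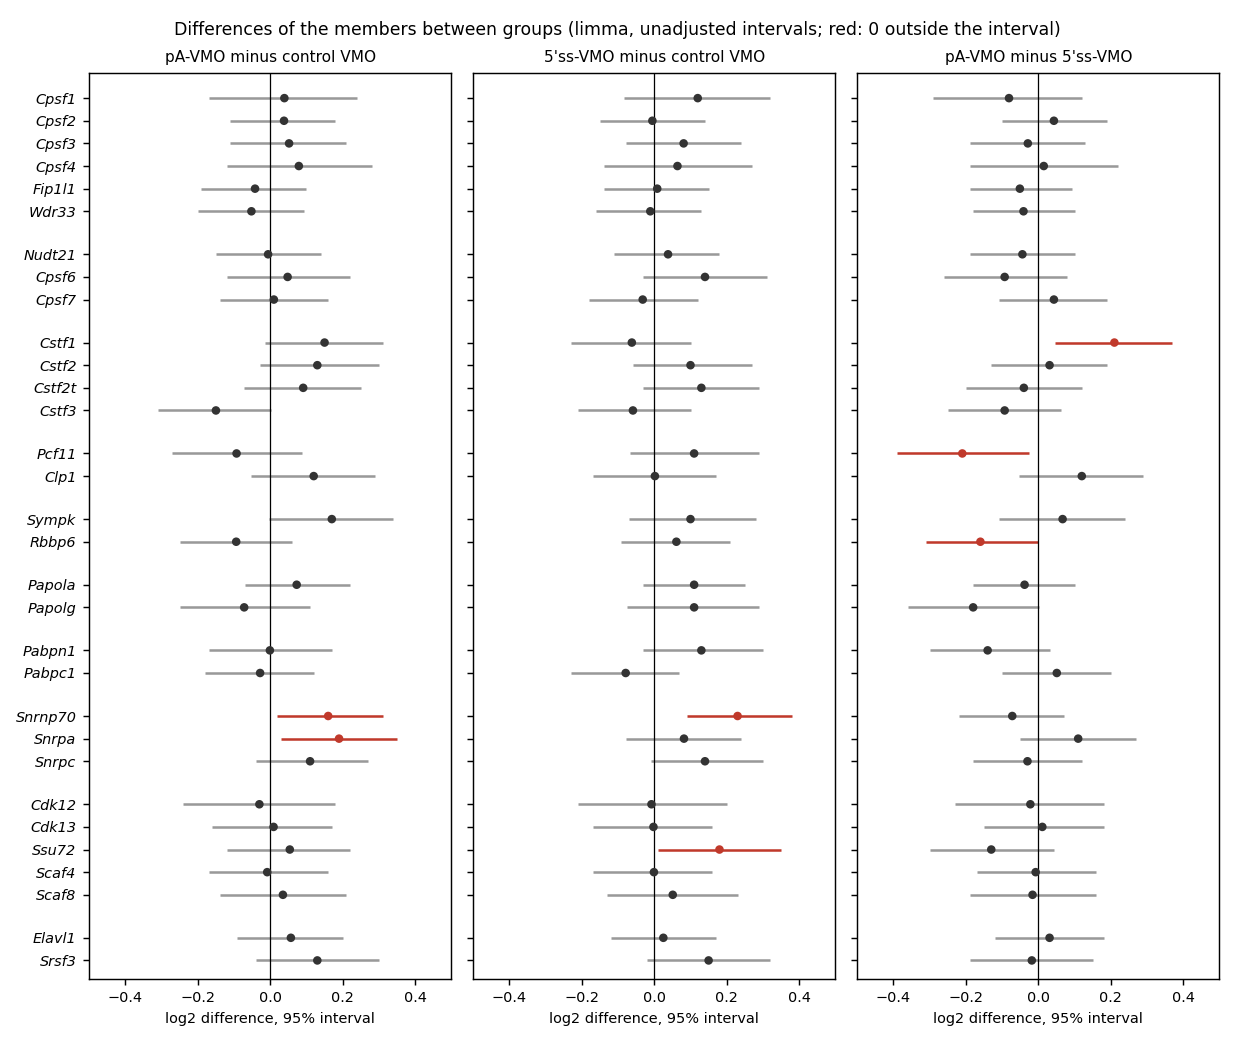
Log2 difference with its 95% interval for each gene in the 3 comparisons (n = 2 arrays per group, limma); red marks intervals that leave out 0. Such intervals belong to 2, 2 and 3 of 31 genes, and none of these genes was called after adjustment over all genes. They equal an unadjusted p under 0.05, which 11.4%, 13.9% and 15.9% of all genes had.

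Among the U1 snRNP proteins, Snrnp70 had the smallest p of the 31 genes with 5'ss-VMO against control and Snrpa the smallest with pA-VMO, on the probe sets used. Snrpc did not stand out in this way. Snrnp70 (chromosome 7, 45376454 to 45395742, GRCm38.p6) encodes U1-70K, which binds the first stem-loop of U1 RNA and contacts splicing factors. Snrpa encodes the A protein, which binds the second stem-loop and can inhibit poly(A) polymerase on its own mRNA, and Snrpc encodes the C protein, which stabilises pairing with the 5' splice site. Because these are the proteins of the particle that recognises 5' splice sites, the 250 bases before a start site of each gene are shown, from RefSeq (GRCm38.p6), 5′ to 3′ on the strand of the gene. For Snrpc the gene's span in RefSeq begins at 27840028, so the last bases of its window, with the marked match, lie inside that span. Capitals mark matches on either strand to 5 motifs. The core of the NRF1 motif was searched as GCATGCGC and the cyclic AMP response element (CRE) as TGACGTCA. The letters CCGGAAG stood for the ETS family of factors. A GC box was searched as the letters GGGCGG. For the TATA box the letters were TATAAA.
Snrnp70, chr7:45395743-45395992, minus strand: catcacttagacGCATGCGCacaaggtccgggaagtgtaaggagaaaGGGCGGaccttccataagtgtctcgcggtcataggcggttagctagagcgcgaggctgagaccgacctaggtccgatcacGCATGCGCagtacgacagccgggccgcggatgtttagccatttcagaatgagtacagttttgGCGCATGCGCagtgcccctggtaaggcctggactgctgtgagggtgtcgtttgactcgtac
Snrpa, chr7:27196272-27196521, minus strand: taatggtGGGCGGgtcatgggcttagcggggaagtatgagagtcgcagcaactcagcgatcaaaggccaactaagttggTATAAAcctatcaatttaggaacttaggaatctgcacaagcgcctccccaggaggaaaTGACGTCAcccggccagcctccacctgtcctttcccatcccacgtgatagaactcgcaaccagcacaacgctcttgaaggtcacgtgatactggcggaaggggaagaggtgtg
Snrpc, chr17:27839837-27840086, plus strand: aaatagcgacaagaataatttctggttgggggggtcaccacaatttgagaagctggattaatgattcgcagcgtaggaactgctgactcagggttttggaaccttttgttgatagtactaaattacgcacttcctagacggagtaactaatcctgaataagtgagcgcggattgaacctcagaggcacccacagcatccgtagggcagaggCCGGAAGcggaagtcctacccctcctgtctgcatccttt

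No motif was present in all 3 windows. Snrnp70 has 4 matches to the NRF1 core, of which 2 overlap each other, and 1 GC box. The table lists 2 windows for Snrpa, of which this is 1. It has 1 GC box, 1 TATA box that lies 171 bases before the start, and 1 CRE, and Snrpc has 1 ETS match. Among all 32851 windows of this length in the table, 2.26% hold the NRF1 core, 6.91% the ETS letters, 32.7% a GC box, 12.4% a TATA box and 1.55% the CRE letters. Of the 29 listed genes with a window, 3 hold the NRF1 core (Fip1l1, Snrnp70 and Srsf7), 7 the ETS letters, 16 a GC box, 2 a TATA box and 1 the CRE letters. The motifs were picked after the sequences had been read, and a match is a description of letters and not of a bound factor.

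Snrnp70 lay at 8.49 and 8.47 (log2) on the control arrays, at 8.61 and 8.68 on the pA-VMO arrays, and at 8.70 and 8.73 on the 5'ss-VMO arrays. The 3 groups did not overlap, with control lowest and 5'ss-VMO highest. The difference from control was 0.23 ± 0.064 (log2, SE, n = 2 arrays per group; 95% interval 0.09 to 0.38) with 5'ss-VMO, which did not pass (adjusted p = 0.174, unadjusted p = 0.00514). With pA-VMO it was 0.16 ± 0.064 (0.018 to 0.31, adjusted p = 0.395). Between the reagents the difference was -0.072 (-0.22 to 0.072, adjusted p = 0.622). On the probe sets used, the test over the 3 groups gave Snrnp70 the smallest p of the 31 genes, 0.0143 before and 0.21 after adjustment.

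For Snrpa the control arrays read 8.83 and 8.80, the pA-VMO arrays 9.01 and 9.0, and the 5'ss-VMO arrays 8.82 and 8.97. Both pA-VMO arrays were above all others, and the 5'ss-VMO arrays overlapped control. The difference with pA-VMO was 0.19 ± 0.070 (0.029 to 0.35), the largest of the 31 genes in that comparison, with an adjusted p = 0.372. Snrpc lay at 8.05 and 7.97 with control VMO, 8.17 and 8.08 with pA-VMO, and 8.14 and 8.17 with 5'ss-VMO. Its differences from control were 0.11 (adjusted p = 0.56) and 0.14 (adjusted p = 0.386), with both arrays of each reagent above both control arrays. With pA-VMO the Snrpc value was 0.073 without control replicate 2 and 0.069 without pA-VMO replicate 1. The reading of Snrpc depended on the probe set, as described below. With pA-VMO 3 of 3 U1 genes had both arrays above both control arrays, and 24.1% of all genes did. With 5'ss-VMO 2 of 3 did, and 23.2% of all genes did.

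Proteins that the U1 particle shares or recruits were read from lists chosen beside the 31 genes. Of the core Sm proteins, 6 of 8 listed were tested and 0 passed in either direction in any comparison, with median differences of 0.063 (pA-VMO against control), 0.079 (5'ss-VMO against control) and -0.030 (pA-VMO against 5'ss-VMO). Snrpd3, a ring protein, had the smallest p over 3 groups, with 9.23 and 9.17 on the control arrays against 9.33 and 9.43 on the 5'ss-VMO arrays (difference 0.18, adjusted p = 0.305). Snrpe, another ring protein, also differed by 0.18 with 5'ss-VMO (adjusted p = 0.388). Among 7 tested U1 auxiliary proteins 0 passed, with medians of 0.024, 0.085 and -0.030 in that order. Prpf39, which holds U1 components together in the spliceosome, lay at 6.74 and 6.48 with control VMO, 6.58 and 6.69 with pA-VMO, and 6.98 and 6.91 with 5'ss-VMO. The Prpf39 difference of 0.33 with 5'ss-VMO was larger than that of any U1 protein above and did not pass (adjusted p = 0.177). Tial1, a U-rich RNA binder that helps U1 to weak splice sites, lay at 0.25 above control with 5'ss-VMO (adjusted p = 0.176).

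CPSF, the complex that recognises the signal and cuts, had 6 measured genes, none with a 95% interval that left out 0. Median differences over Cpsf1, Cpsf2, Cpsf3, Cpsf4, Fip1l1 and Wdr33 were 0.038, 0.036 and -0.035 (pA-VMO against control, 5'ss-VMO against control, pA-VMO against 5'ss-VMO), and the smallest adjusted p was 0.597. Cpsf3, the endonuclease, lay between 7.78 and 7.95 over all 6 arrays. Cpsf2, its inactive partner, ranged from 7.78 to 7.87. Wdr33 and Cpsf4, which touch the AAUAAA hexamer, differed from control by at most 0.079 (Cpsf4, pA-VMO). The member of CPSF with the smallest p over 3 groups was Cpsf1, the scaffold, at 6.54 and 6.32 with control VMO, 6.41 and 6.53 with pA-VMO, and 6.49 and 6.62 with 5'ss-VMO. Its groups overlapped in all comparisons, and the difference with 5'ss-VMO was 0.12 ± 0.091 (-0.085 to 0.32, adjusted p = 0.597), or 0.23 without control replicate 1 and 0.0082 without control replicate 2. With a single 5'ss-VMO array, the second or the first, it was 0.19 or 0.053. Fip1l1, which recruits poly(A) polymerase, lay between 8.73 and 8.82.

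CFIm, whose subunits bind UGUA and shift the choice between sites, showed differences of at most 0.14 on the probe sets used. Cpsf6 lay at 8.56 and 8.38 with control VMO, 8.51 and 8.53 with pA-VMO, and 8.64 and 8.59 with 5'ss-VMO. Both 5'ss-VMO arrays were above both control arrays (difference 0.14 ± 0.076, -0.03 to 0.31, adjusted p = 0.438). Without control replicate 1 it was 0.23 and without control replicate 2 it was 0.05. Cpsf7, the alternative large subunit, lay at -0.032 in the same comparison (-0.18 to 0.12, adjusted p = 0.863). Nudt21, the subunit that reads UGUA, ranged from 8.46 to 8.54 over the 6 arrays on the probe set chosen by the rule.

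CstF, the complex that binds downstream of the cut, had subunits on both sides of 0. Cstf1 (chromosome 2, 172370645 to 172382449, GRCm38.p6), a subunit of the complex, lay at 7.63 and 7.51 with control VMO, 7.68 and 7.76 with pA-VMO, and 7.47 and 7.54 with 5'ss-VMO. The pA-VMO arrays were above all others. Between the reagents Cstf1 differed by 0.21 ± 0.072 (0.047 to 0.37), the largest positive difference of that comparison among the 31 genes, and did not pass (adjusted p = 0.215). Cstf3, the scaffold of the complex, lay the other way, at 6.96 and 6.88 with control VMO, 6.74 and 6.79 with pA-VMO, and 6.91 and 6.81 with 5'ss-VMO. Both pA-VMO arrays were lowest (difference from control -0.15 ± 0.069, -0.31 to 0.0034, adjusted p = 0.447). Cstf2, the subunit that binds RNA, lay at 0.13 above control with pA-VMO and 0.10 above it in the other group (adjusted p = 0.52 and 0.564). Its intronless paralog Cstf2t lay at 0.091 and 0.13 (adjusted p = 0.675 and 0.448). The values of Cstf2 were 7.41, 7.28, 7.47, 7.48, 7.40 and 7.49, and those of Cstf2t 6.44, 6.57, 6.64, 6.56, 6.66 and 6.62, in the order control, pA-VMO and 5'ss-VMO. The control arrays moved these values: without control replicate 2 Cstf2 lay at 0.068 and 0.037 from control with the 2 reagents and without control replicate 1 at 0.20 and 0.17. For Cstf2t with 5'ss-VMO the values were 0.20 and 0.064 in that order, and without 5'ss-VMO replicate 2 Cstf2 lay at 0.06. The RNA-binding subunits of CstF are close paralogs, and how well their probes separate them was not tested.

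CFIIm has 2 subunits and was read with the scaffold symplekin and Rbbp6. Of these 4 genes 2, Pcf11 and Rbbp6, had intervals that left out 0 between the reagents. Such an interval equals an unadjusted p under 0.05, which 15.9% of all genes had there. With so few genes no order against that share is read. Pcf11 (chromosome 7, 92643458 to 92670080, GRCm38.p6), which links cleavage to the release of RNA polymerase II, lay at 8.75 and 8.78 with control VMO, 8.77 and 8.57 with pA-VMO, and 8.85 and 8.90 with 5'ss-VMO. The difference between pA-VMO and 5'ss-VMO was -0.21 ± 0.079 (-0.39 to -0.026, adjusted p = 0.255), and it rests in part on the second pA-VMO array, since without it the value was -0.10. Clp1, an RNA kinase and the other CFIIm subunit, lay at 6.35 and 6.47 with control VMO, 6.46 and 6.59 with pA-VMO, and 6.37 and 6.45 with 5'ss-VMO. Its difference between the reagents was 0.12 ± 0.076 (-0.054 to 0.29, adjusted p = 0.487), so Pcf11 and Clp1 lay on opposite sides of 0. Clp1 was at 0.056 there without pA-VMO replicate 2 and at 0.077 without 5'ss-VMO replicate 1. Sympk, the scaffold symplekin, lay at 8.10 and 7.93 with control VMO, 8.18 on both pA-VMO arrays, and 8.07 and 8.16 with 5'ss-VMO (pA-VMO against control 0.17 ± 0.077, adjusted p = 0.445). That value was 0.26 without control replicate 1 and 0.084 without control replicate 2. Rbbp6, a ubiquitin ligase that switches on the CPSF endonuclease, lay at 8.58 and 8.65 with control VMO, 8.52 and 8.53 with pA-VMO, and 8.62 and 8.73 with 5'ss-VMO. The pA-VMO arrays were lowest, with a difference from 5'ss-VMO of -0.16 ± 0.068 (-0.31 to -0.0021, adjusted p = 0.308), or -0.10 without 5'ss-VMO replicate 2.

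Poly(A) polymerases and poly(A)-binding proteins also stayed below the threshold. Papola, the main nuclear polymerase, lay at 10.09 and 10.14 with control VMO, 10.20 and 10.17 with pA-VMO, and 10.22 and 10.23 with 5'ss-VMO. Its groups did not overlap, yet the differences from control were 0.073 and 0.11 (adjusted p = 0.699 and 0.464). Papolg, a second nuclear polymerase, lay at 6.81, 6.71, 6.71, 6.66, 6.96 and 6.77 in the order control, pA-VMO and 5'ss-VMO, with -0.18 ± 0.080 between the reagents (-0.36 to 0.0022, adjusted p = 0.317). Leaving out 5'ss-VMO replicate 1 gave -0.083, and leaving out its replicate 2 gave -0.28. Pabpn1, the nuclear protein that coats the new tail and holds back the use of early sites, lay at 8.75 and 8.77 with control VMO, 8.73 and 8.78 with pA-VMO, and 8.81 and 8.98 with 5'ss-VMO. The 5'ss-VMO arrays of Pabpn1 were above the rest (difference from control 0.13 ± 0.073, -0.032 to 0.30, adjusted p = 0.448). Leaving out 5'ss-VMO replicate 1 gave 0.22, and leaving out its replicate 2 gave 0.053. Pabpc1, the cytoplasmic tail binder, lay between 12.57 and 12.70, and was the gene with the lowest difference in 5'ss-VMO against control, at -0.079 (adjusted p = 0.631).

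On the probe sets used, enzymes that act on the tail of RNA polymerase II were close to control, with Ssu72 apart from the rest. Ssu72, a phosphatase that acts on that tail and belongs to the 3' end machinery, lay at 7.22 and 7.11 with control VMO, 7.17 and 7.27 with pA-VMO, and 7.29 and 7.40 with 5'ss-VMO. Both 5'ss-VMO arrays were highest (difference from control 0.18 ± 0.075, 0.011 to 0.35, adjusted p = 0.33). Cdk12 and Cdk13, kinases that keep elongation going past early poly(A) sites, differed by -0.03 and 0.0092 with pA-VMO and by -0.0078 and -0.0023 with 5'ss-VMO. The interval for Cdk12 with 5'ss-VMO ran from -0.21 to 0.20. A dimmer probe set of Cdk12, left out by the rule, gave -0.11 with pA-VMO, 0.09 with 5'ss-VMO and -0.20 between the reagents. These are differences of the printed means. Its 5'ss-VMO arrays (5.81 and 5.86) were above the control arrays (5.69 and 5.80) and the pA-VMO arrays (5.53 and 5.73). No adjusted p is given for it. Scaf4 and Scaf8, paralogs that prevent early termination, had differences from control between -0.0084 and 0.051. Elavl1, the RNA-binding protein HuR, lay between 9.70 and 9.79 on the 6 arrays.

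Srsf3 encodes a splicing factor whose binding takes part in poly(A) site choice and mRNA export, and here the probe set mattered. On the probe set chosen by the rule Srsf3 lay at 10.12 and 10.00 with control VMO, 10.19 on both pA-VMO arrays, and 10.14 and 10.28 with 5'ss-VMO. The differences from control were 0.13 (adjusted p = 0.549) and 0.15 (adjusted p = 0.416). Without control replicate 2 they were 0.073 and 0.09, and without 5'ss-VMO replicate 2 the latter was 0.077. Identifiers of probe sets on this array follow the genome: for 99.8% of 18859 genes with a single probe set, the commonest chromosome among the 10 nearest named neighbours in the order of identifiers was the gene's own. For 3 of the 31 genes, Nudt21, Snrpc and Srsf3, the neighbours of the probe set chosen all lay on another chromosome (3, 15 and 15, where the genes are on 8, 17 and 17). These probe sets may thus stand at copies of the genes elsewhere in the genome, which was not tested. Each of the 3 genes has another probe set whose neighbours are on its own chromosome, and this choice was made after the data had been seen.

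On that other probe set, Srsf3 lay at 6.55 and 6.03 with control VMO, 6.35 and 6.44 with pA-VMO, and 6.86 and 6.78 with 5'ss-VMO. The 5'ss-VMO arrays were above all others, and the control arrays lay far apart. The difference of 5'ss-VMO from control was 0.53 ± 0.140 (0.22 to 0.85, unadjusted p = 0.00409, adjusted p = 0.162), and pA-VMO against 5'ss-VMO gave -0.42 (-0.74 to -0.11, adjusted p = 0.2). Without control replicate 2 the difference with 5'ss-VMO was 0.27, and without control replicate 1 it was 0.79. Nudt21 lay at 7.53 and 7.61 with control VMO, 7.63 and 7.66 with pA-VMO, and 7.78 and 7.69 with 5'ss-VMO on its own chromosome's probe set, where the difference with 5'ss-VMO was 0.17 (0.011 to 0.32, adjusted p = 0.326) in place of 0.038. For Snrpc the sign with pA-VMO turned, from 0.11 to -0.081 (-0.24 to 0.076, adjusted p = 0.697), and the difference with 5'ss-VMO was 0.047 (adjusted p = 0.803). On this Snrpc probe set (7.80 and 7.66 with control VMO, 7.66 and 7.64 for pA-VMO, 7.77 and 7.78 for 5'ss-VMO) the arrays of neither reagent lay above both control arrays. The counts of U1 genes above control, 3 of 3 with pA-VMO and 2 of 3 in the other comparison, thus hold for the probe set chosen by the rule and are each 1 lower with this one.

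**Figure D3:**
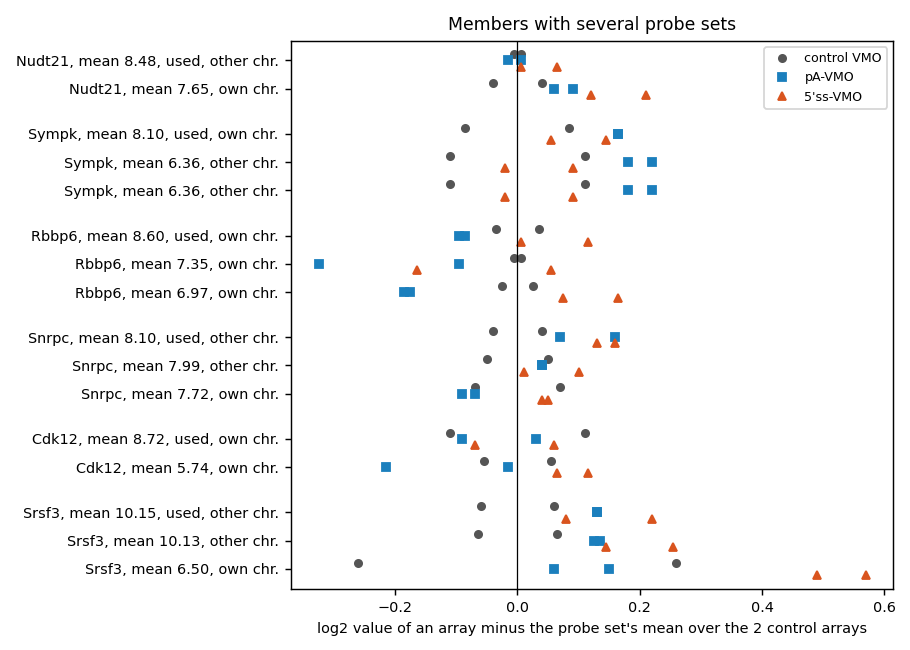
Log2 value of each array minus the probe set's mean over the 2 control arrays (x axis) for the 6 genes with several probe sets (rows, with the mean log2 level, the probe set used, and whether its identifier's neighbours lie on the gene's own chromosome). The own-chromosome probe set of Srsf3 spreads from 6.03 to 6.86, wider than the other Srsf3 probe sets.

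The 3 probe sets of Rbbp6 all had neighbours on its own chromosome and gave pA-VMO differences from control of one sign. These were -0.09, -0.21 and -0.18, from the brightest to the dimmest probe set. On the dimmest, both pA-VMO arrays (6.81 and 6.82) were below both control arrays (7.02 and 6.97) and both 5'ss-VMO arrays (7.07 and 7.16). With 5'ss-VMO the 3 probe sets gave 0.06, -0.055 and 0.12, so their sign was not shared. Between pA-VMO and 5'ss-VMO they gave -0.15, -0.16 and -0.30, all of one sign, as differences of the printed means. No adjusted p is given for the Rbbp6 probe sets that the rule left out.

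As a set, the 31 genes leaned slightly upward in both comparisons with control, which share their control arrays. With pA-VMO 20 of 31 lay above control (64.5%, against 55.2% of all genes), with a median difference of 0.039 against 0.013 over all genes. With 5'ss-VMO 22 of 31 lay above control (71% against 50.4%), with a median of 0.064 against 0.001. Both 5'ss-VMO arrays were above both control arrays for 10 genes (32.3%, where 23.2% of all genes were) and below them for 1 gene, Pabpc1 (3.23%, where 21.5% were). For pA-VMO those counts were 10 above (32.3%, 24.1% of all genes) and 5 below (16.1%, 18.8%). In either direction the groups did not overlap for 42.9% of all genes with pA-VMO, 44.8% with 5'ss-VMO and 49.1% between the reagents. Between the reagents 6 genes were higher with pA-VMO (19.4%, 25.5% of all genes) and 12 lower (38.7%, 23.7%), with a median of -0.029 against 0.004 and 11 of 31 above 0 (35.5%, 51.4% of all genes). All 31 genes lay above the 50th percentile of mean level. Genes at that level leaned the same way between the reagents and for 5'ss-VMO against control. Over them the median was -0.020 between the reagents with 41.8% above 0, and 0.019 with 57.5% above 0 for 5'ss-VMO against control. For pA-VMO against control it was 0.003 with 51.3% above 0, which is below the 0.013 and 55.2% over all genes.

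**Figure D4:**
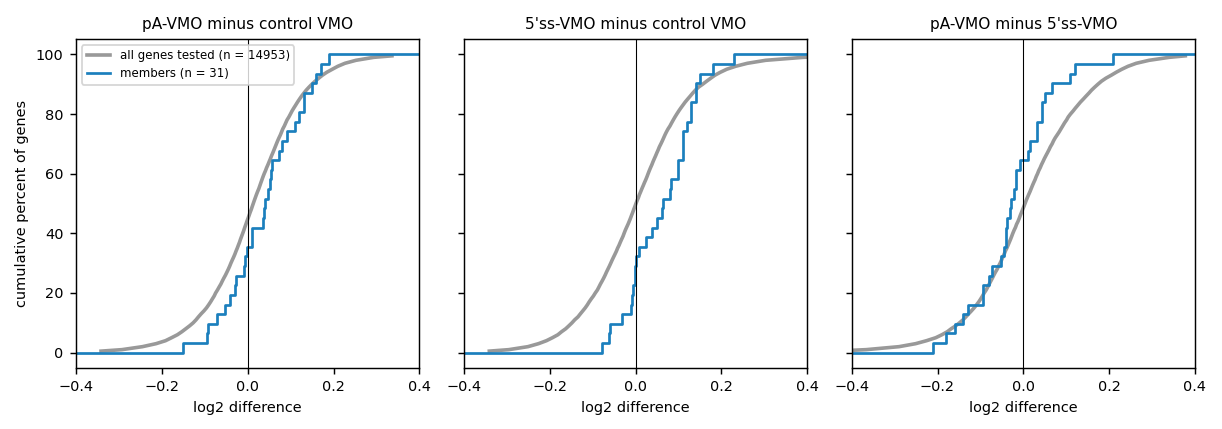
Cumulative percent of genes (y axis) by log2 difference (x axis) for the 31 genes (blue) and all 14953 genes tested (grey) in the 3 comparisons. The medians are 0.039, 0.064 and -0.029 for the 31 genes and 0.013, 0.001 and 0.004 for all genes.

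Single arrays moved with this lean. Control replicate 2 was the lowest of the 6 arrays for 16 of the 31 genes (21.3% of all genes), and 5'ss-VMO replicate 2 was the highest for 14 (18.5%). Without control replicate 2 the median with pA-VMO was -0.001, with 15 of 31 genes above control, and without pA-VMO replicate 2 it was 0.002 with 16 above. With 5'ss-VMO the median was 0.042 without control replicate 2 and 0.044 without 5'ss-VMO replicate 2, with 21 and 22 of 31 above control. Without 5'ss-VMO replicate 1 it was 0.098. The genes were chosen as a set, so these counts carry no test.

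The wider 3' end and splicing machinery also had no called gene. Of 125 listed genes outside the 31, 116 were tested and 0 passed in either direction in any of the 3 comparisons, where 5, 24 and 13 had an unadjusted p under 0.05. These are 4.31%, 20.7% and 11.2% of the 116, against 11.4%, 13.9% and 15.9% of all genes. Their medians were 0.030, 0.073 and -0.028 (pA-VMO against control, 5'ss-VMO against control, pA-VMO against 5'ss-VMO). Among 19 other 3' end factors the median with 5'ss-VMO was 0.037. Srrt, the cap-linked protein ARS2 that directs early termination, lay at 7.44 on both control arrays, 7.60 and 7.66 with pA-VMO, and 7.65 and 7.85 with 5'ss-VMO (difference with 5'ss-VMO 0.31 ± 0.078, adjusted p = 0.149). Zfc3h1, which takes such short transcripts to the nuclear exosome, lay at 8.05 and 7.75 with control VMO, 7.93 and 7.92 with pA-VMO, and 8.18 and 8.20 with 5'ss-VMO (0.29 ± 0.094, adjusted p = 0.235).

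Integrator, the complex that ends transcription of small nuclear RNAs and of stalled polymerase, was read from a list of 17 tested genes. Their medians were 0.037, 0.103 and -0.049 in the same order. Ints3 lay at 7.24 and 7.23 with control VMO, 7.03 and 6.85 with pA-VMO, and 7.20 and 7.44 with 5'ss-VMO. Its difference between pA-VMO and 5'ss-VMO, -0.38 ± 0.094, had the smallest adjusted p of the 116 genes in that comparison, 0.121, and did not pass. Nabp1, also on the Integrator list, lay 0.25 above control with 5'ss-VMO (adjusted p = 0.2). The 17 elongation factors had medians of -0.012, 0.028 and -0.015, with Ccnt2, a cyclin of the kinase that releases paused polymerase, 0.22 above control with 5'ss-VMO (adjusted p = 0.238), and Nelfa, a subunit of the pausing factor NELF, 0.18 above it (adjusted p = 0.318). The 27 SR and hnRNP proteins had medians of 0.046, 0.076 and -0.013, and the 17 U2 and 3' splice site factors 0.083, 0.100 and -0.048. In the first of these lists Tardbp, an hnRNP-like protein, lay 0.24 above control with 5'ss-VMO (adjusted p = 0.224) and Hnrnpd 0.20 (adjusted p = 0.237). In the second, Snrpa1 of the U2 snRNP lay 0.20 above it (adjusted p = 0.237) and Sf3b6, which contacts the branch point, 0.13 (adjusted p = 0.503). The 6 histone mRNA 3' end factors had medians of 0.071, 0.083 and -0.051, with Zfp473, a subunit of the U7 machinery, at 0.27 between pA-VMO and 5'ss-VMO (adjusted p = 0.206), and Ncbp3, a cap-binding protein, at 0.20 with 5'ss-VMO against control (adjusted p = 0.285).

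The target and the makeup of the samples were read beside these genes. Pdgfra (chromosome 5, 75151322 to 75198206, GRCm38.p6) lay between 11.24 and 11.37 on the 6 arrays, with differences of 9.0e-04, -0.0049 and 0.0058 in the 3 comparisons (95% intervals within -0.16 to 0.16). Whether its probe set reads the short transcript was not tested. All 15 FAP markers on the array were above the filter floor on at least 1 array, and 6 of 8 lymphocyte and neutrophil markers, Emcn of the endothelial, Myh1 of the fibre and Cdh19 of the Schwann cell markers were below it on all 6 arrays. The FAP markers summed, on the linear scale, to 51341 to 53816 with control VMO, 50761 to 51189 with pA-VMO and 49676 to 51507 with 5'ss-VMO, with 11 and 12 of 15 below control. The summed linear level of 13 macrophage markers was 1419 to 1693 on the control arrays, 1766 to 1817 with pA-VMO and 1878 to 1893 with 5'ss-VMO, and none of the 13 was below the floor on all arrays. For 20 genes of the G2 and M phases the sums were 2792 to 2881, 3363 to 3503 and 3118 to 3617. Of these, 20 of 20 lay above control with pA-VMO (55.2% of all genes) and 19 of 20 with 5'ss-VMO (50.4%). In both comparisons 0 of 20 passed, with smallest adjusted p of 0.204 and 0.0517, and both use the same control arrays. Summed levels of 9 pericyte and smooth muscle markers were 3747 to 3783, 4365 to 4430 and 4264 to 5000. Those of 9 endothelial markers were 591 to 648, 660 to 667 and 695 to 723. For 10 satellite cell and myoblast markers they were 2777 to 2868, 2836 to 2847 and 2971 to 3097. With 5'ss-VMO against control 1 of 15 FAP markers passed (Dpp4, which fell by 0.52, adjusted p = 0.0318) and 2 of 13 macrophage markers (C1qc and C1qa, which rose by 0.50 and 0.39), where 12 of 13 lay above control and Cx3cr1 was lowest at -0.16. Of 8 endothelial markers tested 1 passed (Cdh5, which rose by 0.70), 5 lay above control, and Tek was lowest at -0.19. Among 10 satellite cell and myoblast markers 1 passed (Chrna1, which rose by 0.62) and 9 lay above control. Among 9 pericyte and smooth muscle markers 1 passed (Mcam, which rose by 0.42) and 8 lay above. In that list Cnn1 was highest at 0.53 and Kcnj8 lowest at -0.10. With pA-VMO against control, and between the reagents, 0 genes of these marker lists passed. With pA-VMO Dpp4 lay at -0.45 from control (adjusted p = 0.204), Cdh5 at 0.29 (adjusted p = 0.251) and Mcam at 0.27 (adjusted p = 0.261). In that comparison C1qc lay at 0.17, C1qa at 0.026 and Chrna1 at -0.073. The part of these markers in the differences of the 31 genes was not tested.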

How the data were processed

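RNA of FAPs was labelled from 100 ng and measured on Affymetrix Mouse Gene 1.0 ST arrays. The deposited values are log2 intensities of 35556 probe sets, made by the authors with Affymetrix Expression Console and RMA, per the submitters' processing notes. No version or setting is given. RMA forces every array onto a common distribution, which hides changes in total RNA per cell, and levels of different probe sets were not set against each other. Probe sets with exactly 1 symbol in the platform annotation (21789) were kept, with the highest-mean probe set per gene, and genes below the 25th percentile of mean level (5.209) were left out. A linear model of group means over all 6 arrays (limma 3.58.1 under R 4.3.3, with eBayes and no block) left 3 residual and 6.06 prior degrees of freedom. P-values for pairs of groups are two-sided, from t tests in limma, and those over 3 groups are from its F test. In the main fit both were adjusted by Benjamini-Hochberg over 14953 genes. An exact permutation of 2 against 2 arrays cannot go below p = 0.333. Precision is limited by having 2 arrays per group, and standard errors of differences had a median of 0.074. The procedure was tested on simulated data. Each array is a separate pool, so p-values measure the spread between pools. The genes and lists were chosen with earlier results of these data known. Genes given with every array are the one with the smallest p over 3 groups in each role and the 8 with the smallest p in each comparison, and each pathway list is represented by its 2 genes with the smallest p over 3 groups. The planned comparison of paralogs by protein sequence was not made. Alternatives changed the level filter, the variance model, the arrays fitted, the block, the summary over probe sets, the centring and the arrays left out.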

Additional observations from a re-analysis of the deposited data

How the results depend on the processing

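The count of called genes was 0 of 31 in each comparison and in the test over 3 groups under all 14 alternatives. One of these, the probe set by identifier neighbours, was chosen after seeing the data, and the fit on a pair of groups gives no test over 3 groups. With the probe set by identifier neighbours, 2, 4 and 4 of 31 genes had an unadjusted p under 0.05 in the 3 pairwise comparisons. In the main fit 11.4%, 13.9% and 15.9% of all genes did. The smallest adjusted p over 3 groups was then 0.186. The smallest adjusted p of any of the 31 genes over these settings was 0.0606 (Snrnp70, 5'ss-VMO against control, variance trend with robust estimation), and otherwise 0.221 for pA-VMO against control and 0.168 between the reagents. With the replicate number as a block the count was 0 in each comparison, with a smallest adjusted p of 0.231 for 5'ss-VMO against control. Same-numbered arrays had correlations of deviations of -0.102, 0.021 and -0.035. With so few arrays in a group, these values cannot decide whether the numbers pair the samples. With that block, calls over all genes went from 9 to 23 between the reagents and from 87 to 90 with 5'ss-VMO.

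With 1 array left out, the median difference of the 31 genes ran from -0.001 to 0.064 for pA-VMO against control, from 0.042 to 0.098 for 5'ss-VMO against control, and from -0.053 to -0.014 between the reagents. Under the other settings it stayed within 0.033 to 0.039, 0.044 to 0.064 and -0.04 to -0.015. Of 756 differences of the 18 genes given with every array, 719 moved by less than their standard error and 37 by more. Most settings could not move a difference of group means. These are the filter, the variance model, the block, the fit on a pair, and leaving out an array of the third group. For a gene with 1 probe set, the choice of probe set could not move it either. So neither this count nor the range under the other settings measures stability. All genes called with 5'ss-VMO numbered 24 with no filter, 181 above the 50th percentile and 265 with trend and robust estimation, and 8 to 76 with 1 array left out. Between the reagents the 9 calls became 3, 102 and 186 under those 3 settings and 1 to 18 with 1 array left out, with pA-VMO the 1 call became 0, 1 and 49, and over 3 groups the 54 became 6, 170 and 299. Signs of single genes are not stable: 16, 20 and 21 of 31 kept theirs under every setting in the 3 comparisons. Dim genes have compressed differences after RMA.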
